A study of Mus musculus with 6 samples.

Results

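The map described here shows where chromatin met the nuclear lamina in mouse embryonic fibroblasts (MEFs) that had received RNAi against lamin C. It consists of the deposited fusion-to-control ratio and the deposited list of lamina-associated domains (LADs) for chromosomes 1 to 19. Its members are all 1699 LADs of that list on these chromosomes, of 1807 in the whole list and 5339 in the 3 lists of the series. The cells were wild type MEFs of the C57BL/6 strain, connective tissue cells grown from embryos, and were profiled as a bulk population. They were given lentiviral shRNA against LmnC, selected with puromycin, and then transduced with a lentivirus that carried either Dam alone or Dam joined to lamin B1 (Dam-LmnB1). Each arm was sequenced as 1 library, so there was no replicate, no p-value is given, and every value describes this pair of libraries. The series also holds a map after LmnA RNAi, made with Dam-LmnB1, and a map after LmnB1 RNAi, made with Dam-LmnA, each with its own Dam-only library. The loss of lamin C was not measured in these files, and a map of MEFs without shRNA was not analysed here.

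Lamins are filament proteins that form a meshwork under the inner nuclear membrane. Lamins A and C are splice forms of the Lmna gene, and lamin B1 comes from Lmnb1 and stays anchored in the membrane. LADs are long stretches of mostly gene-poor, late-replicating and silent chromatin that touch this meshwork. In DamID, the bacterial methyltransferase Dam marks GATC sites near the protein it is fused to, and freely diffusing Dam marks accessible chromatin and serves as the background. A LAD with a high ratio is one that Dam-LmnB1 marked much more often than free Dam across the population. In a bulk map, contact in fewer cells and looser contact in every cell cannot be told apart. LADs are given by mm9 position, since no gene annotation of that build was used.

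Dam-LmnB1 exceeded Dam alone inside LADs by a wide margin over the rest of the genome. The values were log2 ratios for 5972542 GATC fragments on chromosomes 1 to 19, and means were weighted by fragment length. Inside LADs, which held 57.7% of the 2376 Mb covered by fragments, the mean log2 ratio was 1.40. Outside LADs it was -2.66. Odd-numbered fragments alone gave 1.40 and -2.66, and even-numbered fragments gave the same values to 2 decimals. The list was called from this signal, so the gap of 4.06 (SD 0.16 over 19 chromosomes) is built in and is not independent evidence.

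A large part of that gap came from fragments read in only 1 of the 2 libraries, whose values lie above 12 in size because only 1e-05 was added to a count of 0 before the log. Such single-library fragments were mostly fusion-only inside LADs (18.4% of fragments fusion-only, 5.93% Dam-only) and mostly Dam-only outside them (4.82% and 21.1%). Fusion-only fragments inside LADs held 1600958 reads against 397295 in Dam-only fragments, 4.03 times as many. Outside LADs the Dam-only fragments held 2231155 reads against 172061, 13.0 times as many. With single-library fragments left out, the means were 0.63 inside and -1.30 outside. Values without these fragments are given below beside the main results. Fragments that stood at the constant of the map (0 reads in both libraries, or equal reads) were 29.2% of those inside LADs and 27.1% of those outside.

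The strength of a LAD, its mean log2 ratio, varied widely from LAD to LAD. The median was 1.12, with the middle 80% of LADs between -0.27 and 2.05. The lowest was -1.13 and the highest 2.84. The SD over 1699 LADs was 0.86, which was 5.83 times the SD of 0.15 expected from fragment sampling, taken from the difference between odd-numbered and even-numbered fragments of each LAD. Strengths from these sets of fragments correlated with Pearson r = 0.943 and Spearman rho = 0.946 over LADs; both come from the same libraries, so this shows precision and not reproducibility. The fullest steps of 0.2 on the log2 scale lay high in the range, with 163 LADs from 1.6 to 1.8 and 165 from 1.8 to 2. Above this the numbers fell off quickly, to 68 LADs from 2.2 to 2.4 and 10 from 2.4 to 2.6, while the lower side tailed off slowly.

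**Figure D1:**
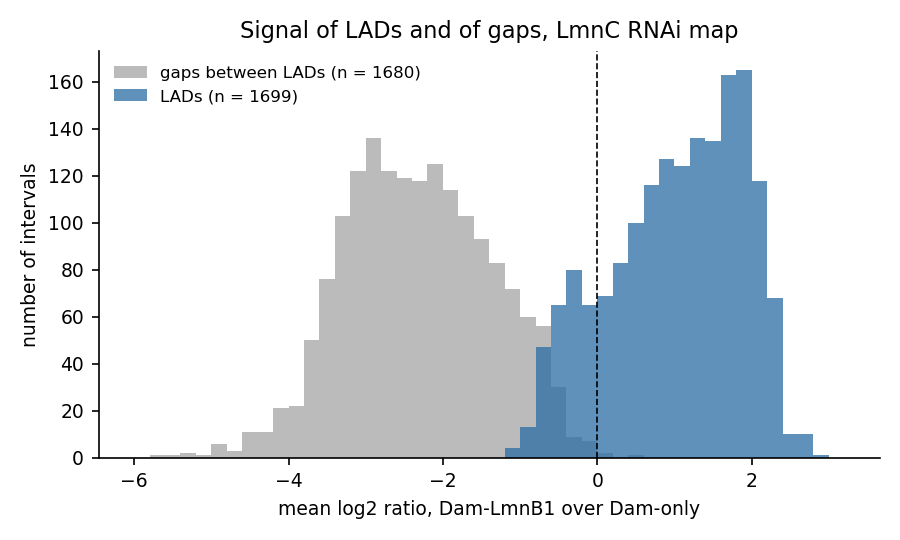
Number of LADs (blue, n = 1699) and of gaps between LADs (grey, n = 1680) by mean log2 ratio of Dam-LmnB1 over Dam-only, in steps of 0.2; the dashed line marks 0. LADs spread from -1.13 to 2.84 with a long lower tail, and overlap the upper end of the gaps, whose highest value is 0.40.

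LADs with no excess of Dam-LmnB1 were common. The mean was below 0 in 274 LADs (16.1%), where 49.3% of all 100 kb bins of chromosomes 1 to 19 lay below 0. In 229 LADs both sets of fragments gave a mean below 0. These 274 LADs were short as a rule, since they held 94.4 Mb, 6.74% of the length of all LADs. Without single-library fragments 380 LADs lay below 0, among them 272 of the 274. At the other end, 207 LADs (12.2%) had a mean above 2, against 17.6% of the 100 kb bins. They held 222 Mb, 15.9% of LAD length, and in 150 of them both sets of fragments were above 2. LADs are longer than these bins (median 449 kb), so their means average over more sequence. The shares of LADs and of bins are therefore not of like units. Zero is not a natural border on this scale, because the deposited values include a constant of 0.21. Measured from that constant, 350 LADs lay below it.

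Long LADs were strong and alike, and short LADs ranged from the weakest to the strongest. The 344 LADs of 100 to 200 kb had a median strength of 0.62 and an SD of 0.84. The 572 LADs of 200 to 500 kb had a median of 0.77 (SD 0.84), the 378 of 500 kb to 1 Mb 1.33 (SD 0.80), and the 234 of 1 to 2 Mb 1.70 (SD 0.61). The 171 LADs of 2 Mb or more had a median of 1.76 and an SD of 0.44. The low end of the classes rose more with length than the high end. The 10th percentile was -0.50 in the shortest and 1.18 in the longest class, and the 90th percentile 1.76 and 2.07. In the shortest class 94 LADs (27.3%) were below 0, and in the longest 2 (1.17%). Without single-library fragments the medians rose in the same order, from 0.13 to 0.84, and the SDs fell from 0.46 to 0.21.

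Over all LADs, strength and the log10 of length had Pearson r = 0.446 and Spearman rho = 0.458, and the fitted line rose by 0.91 per unit of log10 length. LADs share libraries and chromosomes, so these are descriptions. The relation was present on every chromosome, with rho from 0.358 on chromosome 4 to 0.629 on chromosome 12 (mean 0.467, SD 0.0834). It was weaker among long LADs. Among the 1294 LADs under 1 Mb rho was 0.287, among the 405 of 1 Mb or more 0.107, and among the 171 of 2 Mb or more -0.00399. Each of these sets spans a narrower range of length, which can by itself lower rho. The fitted line rose by 0.88, 0.48 and 0.34 per unit of log10 length in the same order. Cutting 50 kb from both ends of LADs of 200 kb or more left rho at 0.424, against 0.456 for the same 1355 LADs whole. The outermost 50 kb on each side, taken alone, also rose with length (rho = 0.276 over 1699 LADs).

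**Figure D2:**
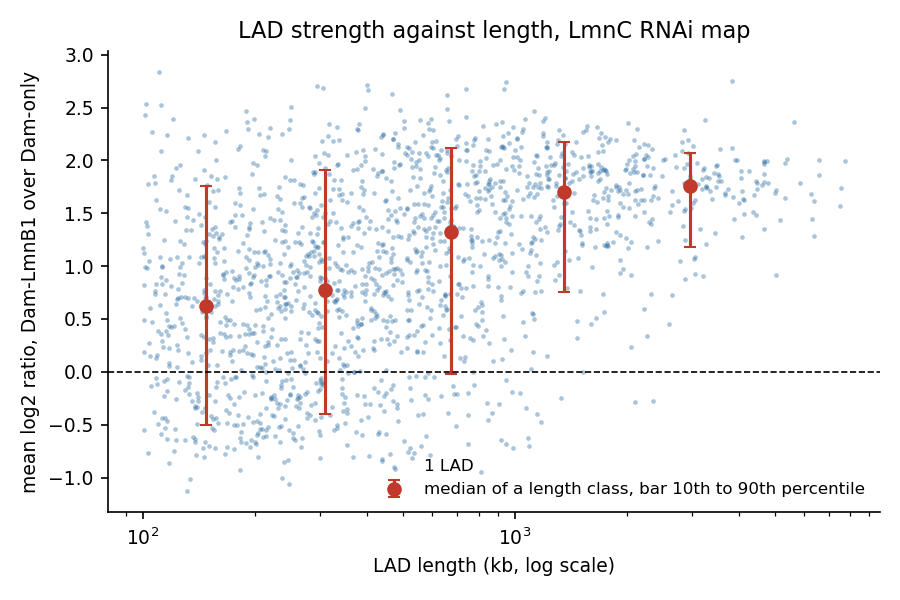
Mean log2 ratio of each LAD (blue points, n = 1699) against its length in kb on a log axis; red points are the medians of 5 length classes, with bars from the 10th to the 90th percentile. The medians rise from 0.62 to 1.76, and the 10th percentile rises from -0.50 to 1.18.

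In windows of 140 kb, long LADs were nearly as varied as the short LADs that could be cut. This length is close to the median of the shortest class (147 kb). Only whole windows were kept, so LADs under 140 kb gave none, and the 344 LADs of the shortest class gave 200. Windows of that class start at a border and most of those in long LADs do not, so distance to the border was not matched. The SD was 0.76 over 3854 windows in LADs of 2 Mb or more. In the 200 windows from LADs of 100 to 200 kb it was 0.85. The level of these windows differed more than their spread, with a median of 1.86 against 0.62. Windows below 0 made up 4.20% in the longest class and 26.0% in the shortest, and windows above 2 made up 40.04% and 6.00%.

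At LAD borders the signal dropped within 1 step of 20 kb, and inside the LAD it rose slowly towards the centre. In the 916 LADs of 400 kb or more, the mean was -2.03 in the last 20 kb outside and 0.96 in the first 20 kb inside. It reached 1.22 at 100 to 120 kb and 1.34 at 180 to 200 kb. Within single LADs, the part at least 180 kb from a border exceeded the outermost 20 kb by a median of 0.47 (SD 0.85 over LADs), and was higher in 654 of 916 (71.4%). Without single-library fragments that median was 0.37, and the centre was higher in 749. Long LADs started from a higher level at the border itself: the first 20 kb stood at 0.59 in LADs of 100 to 200 kb, 0.64 in those of 200 to 500 kb, 0.87 in those of 500 kb to 1 Mb, 1.10 in those of 1 to 2 Mb and 1.17 in those of 2 Mb or more. The rise to the centre had medians of 0.44 (400 kb to 1 Mb, n = 511), 0.49 (1 to 2 Mb, n = 234) and 0.50 (2 Mb or more, n = 171). Without single-library fragments these medians were 0.32, 0.39 and 0.45. With all fragments the medians differed little beside the SD over LADs in each class (0.84, 0.85 and 0.84). The centre reaches deeper in longer LADs, so the classes were not compared at the same depth. The list places borders at such drops, so the step itself is built in.

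**Figure D3:**
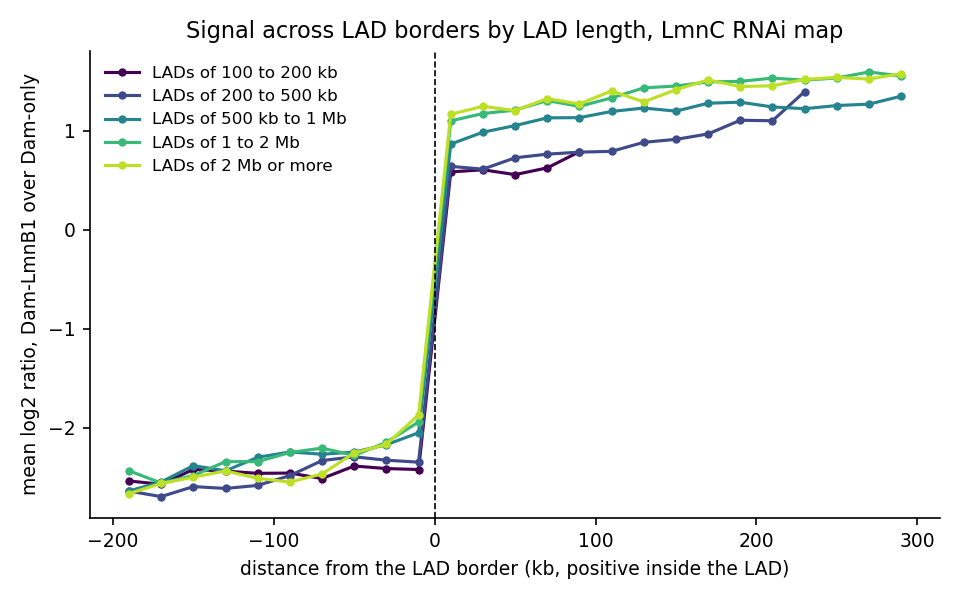
Mean log2 ratio in 20 kb zones from 200 kb outside (negative distance) to 300 kb inside LAD borders, 1 line for each length class. In the first zone inside the border the lines lie in the order of length, from 0.59 in the shortest to 1.17 in the longest class; deeper inside, some lines cross. In the last zone outside the border the lines run from -2.42 in the shortest to -1.87 in the longest class.

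Most of the variation of signal in LADs lay inside LADs and not between them. In bins of 20 kb (68255 bins), differences between LADs made up 30.3% of the variance. Bins scattered around the mean of their own LAD with an SD of 1.09, of which 64.2% of the variance was shared by odd-numbered and even-numbered fragments, equal to an SD of 0.87. This within-LAD spread was therefore as wide as the spread of strength between LADs (SD 0.86). The SD of the shared part rose with length from 0.68 (100 to 200 kb) through 0.80 (200 to 500 kb) and 0.90 (500 kb to 1 Mb) to 0.93 (1 to 2 Mb). It was 0.86 in LADs of 2 Mb or more, and also 0.86 for bins at least 100 kb from a border. In LADs of 1 Mb or more the correlation of odd-numbered with even-numbered fragments was 0.442 in the same bin, 0.254 at a distance of 20 kb, 0.125 at 100 kb and 0.0265 at 300 kb. Peaks and troughs inside long LADs faded with distance, and the correlation was -0.0182 at 500 kb.

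Troughs below 0 were frequent but narrow. Of the LAD bins, 14.3% had a mean below 0, and 1431 of 1699 LADs had at least 1 such bin. The share was 31.6% in LADs under 200 kb and 8.03% in those of 2 Mb or more. Away from LAD ends there were 4528 runs of bins below 0, and 64.8% of them were a lone bin. Runs of 60 kb or more numbered 727 and those of 100 kb or more 206, in 163 LADs. The longest run covered 420 kb on chromosome 15 from 37344352 to 37764351 (mean -1.19), inside a LAD that was itself below 0 (-0.95). On chromosome 4, from 99690562 to 100090561, 400 kb at -1.20 (-1.04 in odd-numbered and -1.38 in even-numbered fragments) lay inside a LAD of 1531 kb with a mean of -0.00. The third, also 400 kb, was on chromosome 17 from 86623495 to 87023494 (-0.87) in a LAD with a mean of -0.70. In LADs with a mean above 1, a group chosen after the values were seen, the longest run was 180 kb, on chromosome 4 from 36148028 to 36328027 (-0.54) in a LAD of 4079 kb with a mean of 1.27.

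LADs with the widest spread of bins, among those of 500 kb or more, switched between strong and lamina-poor stretches. The widest, on chromosome 19 from 12114207 to 12638057, had a bin SD of 1.86 around a mean of 1.72, with bins from -3.26 to 5.30. On chromosome 6 from 56877923 to 58745994 (1868 kb) the SD was 1.78 around 1.76, with 13 of 93 bins below 0. The other three lay on chromosome 8 from 106949634 to 107634506 (SD 1.83, mean 1.37), chromosome 6 from 65923654 to 66840020 (SD 1.76, mean 0.68) and chromosome 16 from 16234430 to 16862625 (SD 1.75, mean 1.87). In the chromosome 6 LAD with a mean of 0.68, 17 of 45 bins were below 0, so its modest mean joined strong and weak stretches. Among LADs of 1 Mb or more, stronger ones tended to be more even (rho = -0.460 between strength and bin SD, n = 405). Over all 1699 LADs there was no such relation (rho = 0.0579).

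**Figure D4:**
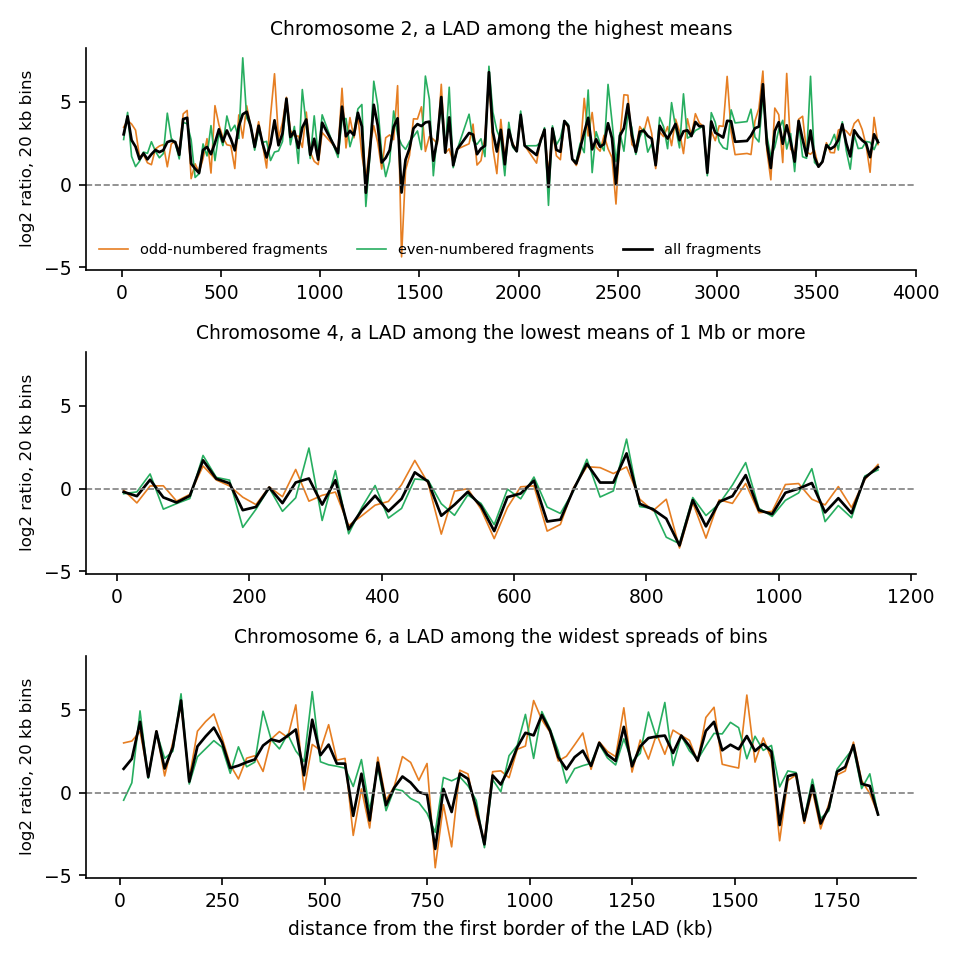
Log2 ratio in 20 kb bins along 3 LADs, by distance in kb from the first border, for all fragments (black) and for odd-numbered (orange) and even-numbered (green) fragments. The chromosome 2 LAD with a mean of 2.75 stays above 0 in all but 3 bins, the chromosome 4 LAD with a mean of -0.48 crosses 0 along its whole length, and the chromosome 6 LAD with a mean of 1.76 has separate stretches above and below 0.

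The strongest LADs came in every length. With all fragments, the highest mean belonged to a LAD of 110 kb on chromosome 13 from 65228797 to 65339099, at 2.84 (2.69 in odd-numbered and 3.003 in even-numbered fragments, 308 fragments in all). Its fusion-only fragments held 203 reads and its Dam-only fragments 11. The second was a LAD of 3833 kb on chromosome 2 from 174300127 to 178133359, at 2.75 (2.72 and 2.78, 10417 fragments), with 7138 reads in fusion-only and 642 in Dam-only fragments. Only 3 of its 182 bins lay below 0. A LAD of 947 kb on chromosome 5 from 146058620 to 147005625 had 2.74 (2.68 and 2.80) and no bin below 0. The last pair of the 5 highest, both on chromosome 10, ran from 78580994 to 78982583 (2.71) and from 56883415 to 57176828 (2.71). The order among these 5 rests on single-library fragments. Without them the chromosome 5 LAD was the highest (1.32), and the chromosome 13 LAD had 1.11 and the chromosome 2 LAD 1.15. All 5 were also strong in the other maps, with 3.02 to 3.51 after LmnA RNAi and 2.499 to 3.07 after LmnB1 RNAi.

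Short LADs could be strong on their own. Apart from the chromosome 13 LAD, the highest of those under 200 kb were on chromosome 1 from 24264185 to 24365744 (2.53), chromosome 4 from 9078738 to 9190315 (2.53), chromosome 10 from 81892991 to 82082241 (2.47) and chromosome 2 from 148564534 to 148666004 (2.43). Odd-numbered and even-numbered fragments gave 2.25 and 2.72 on chromosome 10 and 2.77 and 2.31 on chromosome 1, so the order among them is not settled. The chromosome 2 LAD was in no LAD of the other maps, although its signal there was 2.72 after LmnA RNAi and 1.96 after LmnB1 RNAi.

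Very long LADs were of middling to high strength. The longest on the list, on chromosome 7 from 39079024 to 46798054 (7719 kb), is mostly a stretch without GATC fragments and held only 2136 of them, with a mean of 2.00. The next were on chromosome 1 from 99993096 to 107515982 (7523 kb, 1.74, 20277 fragments), chromosome 14 from 106799099 to 114309786 (7511 kb, 1.57), chromosome 7 from 6762000 to 13357692 (6596 kb, 2.00) and chromosome 8 from 98420169 to 105010294 (6590.1 kb, 1.87). In these LADs after the longest, 2.88% to 8.27% of bins were below 0, and the longest had none of its 35 bins below 0.

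The weakest LADs carried about as many Dam-only as fusion-only fragments, but the Dam-only ones held more reads. In the 170 weakest LADs, Dam-only fragments held 36064 reads and fusion-only fragments 25232. The lowest mean was -1.13, in 131 kb on chromosome 19 from 45154653 to 45286022 (-1.06 in odd-numbered and -1.21 in even-numbered fragments). There 8.40% of fragments were fusion-only and 9.76% Dam-only, and without these the mean was -0.28. Next were chromosome 12 from 9592068 to 9838799 (-1.06), chromosome 4 from 43759572 to 43893507 (-1.02), chromosome 17 from 27401172 to 27637588 (-1.01) and chromosome 15 from 36984352 to 37794103 (-0.95). The chromosome 15 LAD was the longest of the 5 at 810 kb, the others being 131 to 247 kb, and 35 of its 40 bins were below 0. Without single-library fragments the other 4 had -0.63, -0.66, -0.42 and -0.54 in the order given, so the order among the 5 changed. All 5 stood above their surroundings, by 1.21 to 2.46 over the mean of the 100 kb on either side. The list was called from this signal, so a contrast of this kind is built in. In these 5 LADs the share of fragments at the constant ran from 29.5% to 46.9%, where the medians of the length classes under 1 Mb were 27.5% to 29.9%. The part of such fragments in these low means was not tested.

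Weak LADs of 1 Mb or more were rare. The 5 lowest were on chromosome 19 from 30223889 to 31316622 (-0.70), chromosome 18 from 10861066 to 11948971 (-0.63), chromosome 4 from 53542167 to 54715251 (-0.48), chromosome 13 from 27221185 to 28367927 (-0.40) and chromosome 6 from 148184171 to 149253294 (-0.34). Between 54.7% and 74.1% of their bins were below 0. Reads in Dam-only fragments exceeded those in fusion-only fragments in all 5, for instance 769 against 412 in the first. Without single-library fragments their means ran from -0.44 to -0.23.

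The 170 weakest and the 170 strongest LADs, about 10% of the list each, were set side by side as a description; strength itself chose them. The weakest had means up to -0.27 and the strongest from 2.05, and the LADs just outside these limits had -0.27 and 2.05 as well, so both groups are cut from a continuum. A choice made on odd-numbered fragments alone held up in the even-numbered ones, with a median of -0.47 in the weakest (-0.58 in the choosing set) and 2.18 in the strongest (2.21). Of each 170, 129 and 114 were again among the weakest and strongest in the other set. The weakest had a median length of 238 kb (interquartile range 169 to 405 kb) and the strongest 697 kb (391 to 1224 kb). LADs of 1 Mb or more numbered 7 among the weakest and 59 among the strongest, and those under 200 kb 61 and 19. In total the weakest held 58.8 Mb and the strongest 166 Mb.

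The surroundings of the weakest LADs were also lower. The 100 kb on either side had a median of -2.89 around the weakest, -2.18 around the LADs between and -2.02 around the strongest. Over all LADs strength and flank had rho = 0.290, but among the 405 LADs of 1 Mb or more rho was -0.0242, and the weakest LADs were mostly short. The neighbouring LADs on both sides had a median strength of 0.73 beside the weakest and 1.21 beside the strongest. Strength and relative position along the chromosome had rho = -0.00641 (n = 1699).

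Strong LADs were richer in GATC sites. Fragments per kb had a median of 2.47 in the weakest, 2.53 in the LADs between and 2.77 in the strongest, and the median fragment length was 268.5, 257 and 230.0 bp. Over all LADs strength and fragments per kb had rho = 0.330. Fragment length moves with the deposited values by itself: inside LADs the mean was 5.63 for fragments of 100 to 200 bp, where 47.3% were single-library, and 0.26 for those of 1 kb or more, where 0.379% were. Strength was therefore also taken from fragments of 500 bp to 1 kb alone, of which 1.62% were single-library. On that measure rho with fragments per kb was 0.251, rho with length 0.498 and rho with the strength from all fragments 0.951. Medians were -0.66 in the weakest, 0.46 in the LADs between and 1.11 in the strongest. These fragments are part of the strength that chose the groups, so this order is not independent of the choice.

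The same LADs kept much of their order in the other maps, which used other libraries. Over the 1699 LADs, strength had rho = 0.890 with the mean log2 ratio after LmnA RNAi and 0.904 with that after LmnB1 RNAi. Odd-numbered and even-numbered fragments of the LmnC RNAi map had rho = 0.946. Each of those means rests on only part of the fragments, so 0.946 is not the upper limit for means from all fragments. All maps share the same fragments, so base composition and mappability are common to them. The 170 strongest had a median of 2.79 after LmnA RNAi and 2.18 after LmnB1 RNAi, and 104 and 91 of them were among the 170 strongest there. The 170 weakest had medians of 0.65 and -0.08, and 97 and 109 were among the 170 weakest there. The difference in level includes the constants of the maps, 0.21 after LmnC RNAi, -0.34 after LmnA RNAi and -0.15 after LmnB1 RNAi.

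Strong LADs were almost wholly LADs in every map, and weak ones often were not. Of the 170 strongest, 1 had less than 50% of its length in LmnA RNAi LADs and 1 less than 50% in LmnB1 RNAi LADs. Of the 170 weakest, 34 and 80 did, beside 18 and 73 of the 1359 LADs between. Over all 1699 LADs the counts were 53 and 154. Median cover of the weakest was 97.2% by LmnA RNAi LADs and 62.7% by LmnB1 RNAi LADs, and that of the strongest 100% and 99.8%. Of the 5 weakest LADs, the one on chromosome 19 was outside the LADs of both other maps, and the one on chromosome 12 was wholly inside both. Among the 5 weakest of 1 Mb or more, the one on chromosome 6 had 100% of its length in LmnA RNAi LADs and 0% in LmnB1 RNAi LADs. The other 4 were covered by 85.8% or more in both.

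**Figure D5:**
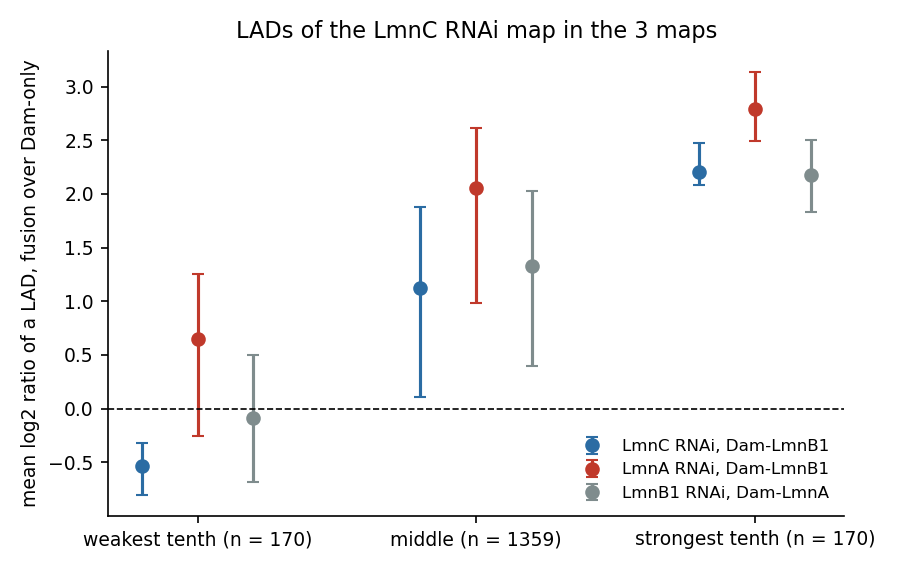
Median log2 ratio of the weakest 170, the middle 1359 and the strongest 170 LADs of the LmnC RNAi map in each of the 3 maps, with bars from the 10th to the 90th percentile over LADs. The groups were chosen on the LmnC RNAi values (blue); the order is kept in the other maps, with 0.65, 2.05 and 2.79 after LmnA RNAi and -0.08, 1.32 and 2.18 after LmnB1 RNAi.

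The relation of strength to length was close to that of the other maps when each was read over its own LADs (rho = 0.493 over 1680 LADs after LmnA RNAi, 0.457 over 1644 after LmnB1 RNAi and 0.458 here). LADs with a mean below 0 were more numerous after LmnC RNAi. Their share was 16.1% here, 5.12% after LmnA RNAi and 4.74% after LmnB1 RNAi. The level of the whole list differed as well, with a median strength of 1.12 here, 1.70 after LmnA RNAi and 1.39 after LmnB1 RNAi. The SDs were 0.86, 0.88 and 0.72. These shares therefore do not separate a lower level of the map from an excess of weak LADs. Single-library reads on chromosomes 1 to 19 leaned to the Dam-only library in the LmnC RNAi map (2628450 against 1773020), and their part in the share below 0 was not tested. In LADs of 2 Mb or more the SD of strength was 0.44 here, 0.37 after LmnA RNAi and 0.31 after LmnB1 RNAi. The difference between maps has no replicate check.

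Gaps between LADs were low at every length, and short gaps were less low than long ones. The 452 gaps under 100 kb had a median of -2.02 (SD 1.14), the 695 of 100 to 500 kb -2.16 (SD 0.96) and the 533 of 500 kb or more -2.74 (SD 0.65). Without single-library fragments the medians were -0.94, -1.11 and -1.36. Short gaps followed the LADs around them, with rho = 0.527 between the gap and the mean of its flanking LADs, against -0.0807 for gaps of 500 kb or more. Signal overlapped between the lists, as 214 of 1680 gaps exceeded the weakest LAD. Among gaps of 100 kb or more, 4 of 1228 exceeded the upper limit of the 170 weakest LADs. The highest of 200 kb or more were on chromosome 10 from 121703579 to 122009950 (-0.10) and from 118180617 to 118517895 (-0.18), chromosome 12 from 59499733 to 59748648 (-0.25), chromosome 4 from 10001414 to 10374328 (-0.43) and chromosome 12 from 12213584 to 12529579 (-0.48). Neighbouring LADs were more alike across a short gap, with rho = 0.289 across gaps under 100 kb, 0.208 across 100 to 500 kb and 0.0567 across 500 kb or more.

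Chromosomes differed little in how strong their LADs were. The mean inside LADs ran from 1.24 on chromosome 13 to 1.55 on chromosome 7, with an SD of 0.079 over 19 chromosomes, and chromosomes accounted for 1.09% of the variance of LAD strength. The share of a chromosome in LADs was less even, from 46.2% on chromosome 11 to 62.9% on chromosome 14. LADs of chromosome 11 were nevertheless of usual strength (1.36). Beside about 10% of all LADs, the share of a chromosome's LADs among the 170 weakest ran from 3.74% on chromosome 5 (4 of 107) to 15.5% on chromosomes 13 (15 of 97) and 18 (9 of 58). The share among the 170 strongest ran from 4.69% on chromosome 15 (3 of 64) to 15.5% on chromosome 18 (9 of 58). Both groups had members on all 19 chromosomes.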

How the data were processed

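DamID libraries of bulk MEFs were sequenced, 1 Dam-only and 1 fusion library per map. Per the submitters' processing notes, reads were aligned with Bowtie to mm9; the sources used here do not give its version, the filters or the LAD caller. The authors deposited 1 log2 ratio per GATC fragment and a list of LAD starts and ends in bp, a unit of the kind "other". The spacing of low values shows a log2 quotient of read numbers (fusion divided by Dam-only, each raised by 1e-05) shifted by 1 constant per map. Reads recovered from 1489953 single-library fragments of up to 100 reads were whole within 0.02 in 100%. Total depth is unknown.

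Fragments were assigned to LADs by their middle, and all means were weighted by fragment length. Bins of 20 kb ran from each LAD's start and needed 50% cover. LADs were named by rule, each with at least 200 fragments: the 5 highest, 5 lowest, 5 highest under 200 kb, 5 lowest of 1 Mb or more, 5 longest and 5 with the widest bin SD (from 500 kb), the 3 longest internal runs below 0, and the 5 highest gaps of 200 kb or more. Odd-numbered against even-numbered fragments gave the sampling error. No test was possible with 1 library per group. Python 3.11.15, numpy 2.4.6, pandas 2.3.3, scipy 1.17.1 and matplotlib 3.10.9 were used, and the scripts were tested on simulated data. The members and lists were chosen with earlier results of these data known. Chromosomes X and Y and unplaced sequence were left out, except where X is named. Starts were read as counted from 0, as in BED, which the files do not state, and are printed counted from 1. Genes and sequences are not reported, since no mm9 genome was used here.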

Additional observations from a re-analysis of the deposited data

Results flagged for a closer look

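Among the 29 LADs named by rule, 8 had a mean log2 ratio below 0 after LmnC RNAi and above 0 after LmnA RNAi, the map made with the same fusion. All 8 were named for a low mean after LmnC RNAi, and that choice favours a higher value in any other map. The pattern was not particular to them. Of the 274 LADs of the whole list below 0 after LmnC RNAi, 234 were above 0 after LmnA RNAi. With 1 map per knockdown the difference between the maps was not tested. The values include the constants of the maps (0.21 and -0.34). Subtracting the constants would set the 2 values of a LAD further apart. The cause of the differing signs was not tested. The values were -1.13 and 0.19 on chromosome 19 from 45154653 to 45286022, -1.06 and 1.35 at 9592068 to 9838799 of chromosome 12, and -0.95 and 0.35 on chromosome 15 from 36984352 to 37794103. Among LADs of 1 Mb or more they were -0.70 and 0.91 on chromosome 19 from 30223889 to 31316622, -0.63 and 0.95 at 10861066 to 11948971 of chromosome 18, and -0.48 and 0.72 on chromosome 4 from 53542167 to 54715251. The LAD at 27221185 to 28367927 on chromosome 13 had -0.40 and 0.84, and the one at 148184171 to 149253294 on chromosome 6 had -0.34 and 1.35. Without single-library fragments the signs still differed in 6 of the 8, and not in the shorter chromosome 19 LAD (-0.28 and -0.34) or the chromosome 15 LAD (-0.54 and -0.13).

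Chromosome X was outside the comparisons above. Its 106 LADs had a mean log2 ratio of 1.39, beside 1.40 on chromosomes 1 to 19, and its sequence outside LADs had -3.18 beside -2.66.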

How the results depend on the processing

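No paired analysis was possible because each arm of the map is 1 library and no test was run. The 12 main results were recomputed under 12 alternatives, 2 of them chosen after seeing the data (fragments of 200 bp to 1 kb only, and the constant subtracted). Of 126 values, 82 stayed within a limit, 44 moved past it and 0 reversed. The limit was 1 SD over chromosomes, or 1.5-fold for counts and for the spread between chromosomes. For the share of bins below 0 it was the exact binomial interval, which is narrower than that SD. Fragments read in 1 library set the scale. Without them the LAD to inter-LAD difference was 1.93, the median strength 0.49, the SD between LADs 0.47 and within LADs 0.51, the long minus short difference 0.68, the pooled centre minus edge 0.52 (0.67 in the main setting, a value that mixes LADs of different length), bins below 0 15.9% and the spread between chromosomes 0.043. With 1 read added in place of 1e-05 these were 1.99, 0.53, 0.47, 0.50, 0.67, 0.49, 14.9% and 0.042. Without fragments at the constant the difference was 4.45, the SDs 0.95 and 1.21, and bins below 0 14.6%; without both kinds, the difference was 2.14, the median 0.52, the SDs 0.53 and 0.56, long minus short 0.77, bins below 0 16.7% and the spread 0.048. With each fragment counted once, the difference was 6.22, the median 2.37, the SDs 1.26 and 1.75, long minus short 1.53, LADs below 0 102 and bins below 0 10.4%. Bins of 50 kb gave an SD within LADs of 0.86 and 11.8% below 0. With 50 kb trimmed from each end, only the 1355 LADs of 200 kb or more were kept. The median was then 1.34, LADs below 0 169 and bins below 0 12.6%. Of the 274 LADs below 0 in the main setting, 94 were in the class of 100 to 200 kb that was left out. These shifts therefore mix the trimming with the change of LADs. Long minus short, gaps and centre minus edge have no value there. Fragments of 200 bp to 1 kb gave a difference of 4.50, an SD within LADs of 1.27 and 15.6% of bins below 0, and subtracting the constant gave a median of 0.91 and 17.6%. Beyond the construction of these settings, the cause was not tested. Without replicates, the odd and even fragments bound counting error only.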
